A study of Mus musculus with 10 samples.

Results

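Loss of Strap was followed in mouse embryonic stem cells (ESCs) and in the embryoid bodies (EBs) grown from such cells, to ask which genes moved the same way in both. STRAP is a WD40-repeat protein that binds the SMN complex, which loads Sm proteins onto the small nuclear RNAs of the spliceosome, and it is also known as an inhibitor of TGF-beta signalling. The members were all Strap knockout (KO) and wild-type (WT) libraries of the 2 materials, 6 of the 10 libraries of the series: 1 KO and 1 WT ESC library, and 2 KO and 2 WT EB libraries. KO ESCs carry a Strap allele made with zinc finger nucleases and came from blastocysts of heterozygous crosses. The labels give the strain C57BL/6 for both genotypes, and ESCs of both were kept on feeder fibroblasts. EBs were formed in hanging drops without LIF, then kept in N2B27 medium with 10 ng/ml bFGF, and were collected at 9 days. Which ESC line each library came from was not stated, so KO and WT can differ in line as well as in Strap. The remaining 4 libraries, from WT embryos at E8.0 and E9.0, are cited as a background level. They also enter an alternative fit of all 10 libraries, where they help to set the spread.

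Abundance was given in FPKM, which divides the fragments of a gene by its transcript length and by the library total. A row of the table was tested if its mean FPKM was at least 1 in the 2 ESC libraries and at least 1 in the 4 EB libraries, which left 12579 rows. Differences are KO minus WT on the log2(FPKM + 1) scale, on which the change of weakly expressed genes comes out too small. A limma model with material as a block gave 1 genotype difference per row, in which the EB difference weighs 2 and the ESC difference 1, and a gene was called when its Benjamini-Hochberg adjusted p was under 0.05 and both materials moved the same way. With 1 ESC library per genotype, the ESC difference has no replicate of its own, and nothing states that the 2 EB libraries of a genotype came from separate lines, so p-values measure only the spread between these libraries. That spread includes the gap between the ESC and EB differences, so a gene with like differences gets a lower p.

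Between 13480 and 13886 genes reached an FPKM of 1 in each of the 6 libraries. The files hold no counts, so the sequencing depth is unknown. Rows resembling ribosomal RNA held 5.86% of FPKM in KO ESCs and 2.31% and 0.30% in KO EBs, against 3.60% in WT ESCs and 14.58% and 0.16% in WT EBs, so that the first WT EB library stands apart. Mitochondrially encoded mRNAs held 1.61% of FPKM in KO ESCs and 3.41% and 3.52% in KO EBs, against 2.03% in WT ESCs and 5.70% and 6.62% in WT EBs, and their part in the results was not tested. The 7 ESC markers summed to 1580 FPKM in KO ESCs and 741 and 997 in KO EBs, against 1650 in WT ESCs and 280 and 627 in WT EBs. Neuroectoderm markers of the EB protocol summed to 67.5 and 12.3 FPKM in KO EBs and 69.8 and 26.2 in WT EBs, against 10.3 in KO ESCs and 15.4 in WT ESCs, so that the second EB library of each genotype was below the first. Of the Y-linked genes, Eif2s3y had 2.87 FPKM in KO ESCs and 1.69 in WT ESCs. It was listed at 0 in both KO EB libraries, against 0.0326 and 0 in WT EBs. Kdm5d, Uty and Ddx3y went the other way in ESCs, with 0.343, 0.158 and 0.665 FPKM in KO and 0.507, 0.546 and 1.15 in WT.

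Strap itself (ENSMUSG00000030224.10, chromosome 6, 137735078 to 137751932, plus strand, GRCm38) was the only gene called as lower, 1 of 12579 rows or 0.00795%. It had 14.5 FPKM in KO ESCs and 8.48 and 11.3 in KO EBs, against 68.7 in WT ESCs and 49.7 and 47.2 in WT EBs. All KO libraries lay below all WT libraries, and the share left was much alike, 21.1% in ESCs and 20.5% in EBs. The difference was -2.18 (SE 0.143, limma adjusted p = 0.0203), with -2.17 in the ESC pair and -2.19 in EBs. Over the 19 alternatives the limma adjusted p ran between 0.000399 and 0.18, and 11 of them passed. It was 0.0968 without a filter on low values, 0.0742 with equal weights for the materials and 0.0633 without the trend on abundance. It was 0.171 without the KO ESC library, 0.18 without the WT ESC library, 0.0664 without the first KO EB library, 0.0908 without the first and 0.108 without the second WT EB library. The difference stayed between -2.29 and -2.07 throughout. Without either ESC library the fit compares EBs alone.

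Snord83b, a box C/D small nucleolar RNA (snoRNA), was the only row called as higher. It is named here after its values were seen, because loci under 300 bases are outside the naming rule. Small nucleolar RNAs guide chemical modification of ribosomal and other RNAs and are usually cut out of introns of host genes. Snord83b (ENSMUSG00000077734.1, chromosome 15, 80078498 to 80078591, minus strand, GRCm38) lies within the gene of the ribosomal protein Rpl3, in no annotated exon of another gene. It had 63.6 FPKM in KO ESCs and 128 and 155 in KO EBs, and was listed at 0 in all 3 WT libraries and in the 4 embryo libraries. The fitted difference was 6.77 (SE 0.262, limma adjusted p = 0.00157), a value that depends on the pseudocount since WT is at 0. It did not pass without the first KO EB library, where 0 rows were called in limma and 1241 had an unadjusted p under 0.05. The host row, which merges Rpl3 with a second snoRNA, Gm22077, had 685 FPKM in KO ESCs and 1090 and 1080 in KO EBs, against 716 in WT ESCs and 950 and 899 in WT EBs. The host row therefore did not show the on and off pattern of the snoRNA.

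Of all rows tested, 3 were listed at 0 in every WT library and above 0 in every KO library, namely Snord83b, the snoRNA Gm22786 and Platr13, a long noncoding RNA linked to ESCs. In the other direction, 2 rows were listed at 0 in every KO library and above 0 in every WT library, the snoRNA Gm24607 and the small RNA Gm27960. Gm22786 (chromosome 1, 86087301 to 86087422, plus strand, within the proteasome gene Psmd1 and in none of its exons) had 11.4 FPKM in KO ESCs and 50.3 and 50.6 in KO EBs. It did not pass (limma adjusted p = 0.0616), although it did with a pseudocount of 0.1 and with equal weights for the materials. Without either ESC library it passed too, but that fit compares EBs alone. WT cells do not all lack it, since the 4 embryo libraries had 2.35 to 27.5 FPKM. Gm24607 was at 9.68 FPKM in WT ESCs and at 4.82 and 4.23 in WT EBs (limma adjusted p = 0.0742). All 4 of these small RNAs lie in loci under 300 bases, and the part of locus size in their values was not tested. The transcripts below, from GENCODE, are those of the 2 snoRNAs that were on in KO libraries and off in WT libraries. Capitals mark the letters of box C (TGATGA) and of box D (CTGA, found at 2 places) in Snord83b, and in Gm22786 the ACA that stands 3 bases before the end, as in box H/ACA snoRNAs.
Snord83b: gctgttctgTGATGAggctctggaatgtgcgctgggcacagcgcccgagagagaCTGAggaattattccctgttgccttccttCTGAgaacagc
Gm22786: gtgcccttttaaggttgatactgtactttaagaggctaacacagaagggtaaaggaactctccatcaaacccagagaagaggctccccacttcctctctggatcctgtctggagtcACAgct

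The number of rows past the test was small. The 2 calls, 1 in each direction, are 0.00795% of the rows tested in each direction, while 1652 rows (13.1%) had an unadjusted limma p under 0.05, of which 1063 were higher and 550 lower in KO in both materials and 39 had opposite directions, a split that the fit favours because it pools the materials. Over all rows, KO was above WT in both materials for 31.6% and below in both for 27.3%. Across the 12579 rows the ESC and EB differences had a Pearson correlation of 0.198 and a Spearman correlation of 0.238, a description over genes, which are not independent. By size alone, 183 rows (1.45%) were at least 1.5-fold higher in KO in both materials with EB libraries of the genotypes not overlapping, and 109 rows (0.867%) were at least 1.5-fold lower. Another 91 rows (0.723%) were as far apart in opposite directions, 37 of them higher in KO ESCs and lower in KO EBs, and 54 the other way round. Thus 292 of the 383 rows that were 1.5-fold apart in both materials, or 76.2%, went the same way. At 2-fold the counts were 36 higher, 20 lower and 13 opposite. These counts carry no test. Without the second WT EB library they were 291 higher, 190 lower and 194 opposite at 1.5-fold. They were 209 lower and 184 opposite without the first KO EB library, and 123 lower and 138 opposite without the second. Fewer libraries then had to lie apart.

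**Figure D1:**
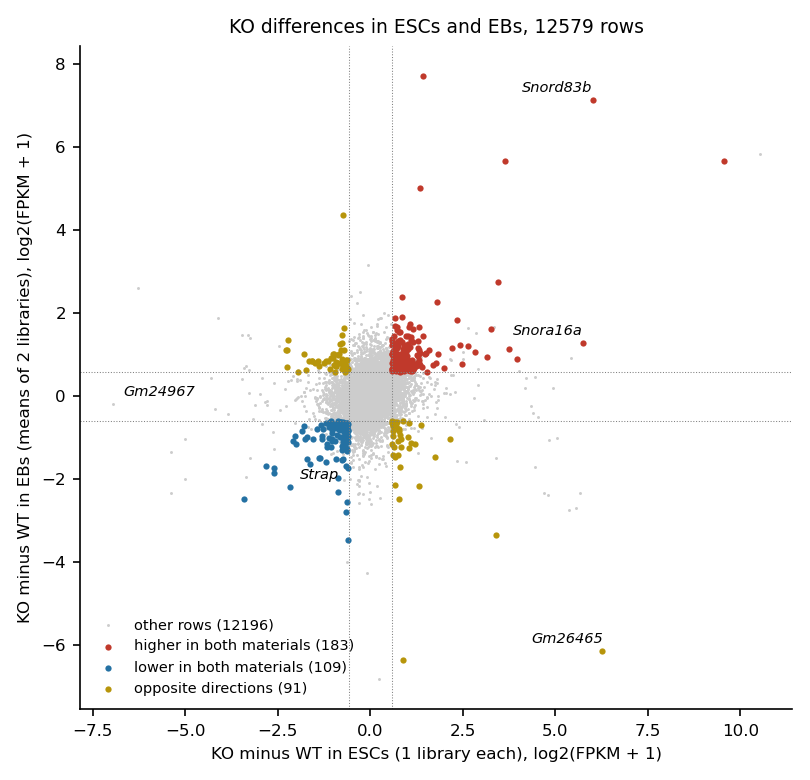
KO minus WT difference of each of the 12579 rows in ESCs (x axis, 1 library per genotype) and in EBs (y axis, means of 2 libraries), both on the log2(FPKM + 1) scale, with dotted lines at 1.5-fold. The 183 rows higher and the 109 rows lower in both materials outnumber the 91 rows with opposite directions, and Strap lies at -2.17 and -2.19.

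The rows higher and lower in both materials differed in gene length. Of the 183, 130 were protein-coding and 8 had merged names. Of the 163 with a known locus length, 13 lay in loci under 300 bases. Their protein-coding genes had a median locus of 13481.5 bases, against 83487.5 bases for the protein-coding genes among the 109 lower rows and 25007.5 bases for all protein-coding genes tested. The median FPKM was 7.61 in ESCs and 8.43 in EBs for the higher rows, and 4.79 and 5.66 for the lower rows, against 12.3 and 13 for all rows.

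The 12 genes with the lowest p among those higher in KO under the naming rule, none of which passed over all rows, have varied roles. 2410006H16Rik, a predicted name outside that rule and named after its values were seen, had a lower p (limma adjusted p = 0.0742). That row had 71.4 FPKM in KO ESCs and 428 and 407 in KO EBs, against 32.6 in WT ESCs and 144 and 164 in WT EBs. Hyou1, an endoplasmic reticulum (ER) chaperone, had 97.5 FPKM in KO ESCs and 72.6 and 78.6 in KO EBs, against 52.4 in WT ESCs and 41.8 and 47.8 in WT EBs, a difference of 0.79 (SE 0.114, limma adjusted p = 0.254). Cox14, an assembly factor of cytochrome c oxidase, had 26.4 FPKM in KO ESCs and 48.1 and 45.5 in KO EBs, against 14.4 in WT ESCs and 25.2 and 28.3 in WT EBs. Tomm5, a small subunit of the import pore of the outer mitochondrial membrane, had 45.6 FPKM in KO ESCs and 57.2 and 64.2 in KO EBs, against 26.2 in WT ESCs and 34.5 and 37.7 in WT EBs. Bak1, which permeabilises that membrane in apoptosis, had 42.3 FPKM in KO ESCs and 23.1 and 24.8 in KO EBs, against 21.9 in WT ESCs and 13.6 and 12.9 in WT EBs.

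Hmga1, an architectural chromatin protein, was the most abundant of the 12. It had 161 FPKM in KO ESCs and 185 and 177 in KO EBs, against 97.4 in WT ESCs and 89.1 and 94.8 in WT EBs (0.89, SE 0.112, limma adjusted p = 0.191). Its KO libraries were within 161 to 185 FPKM whatever the material, and its WT libraries within 89.1 to 97.4. Epb41l4aos, a noncoding snoRNA host, had 35.5 FPKM in KO ESCs and 119 in each KO EB library, against 18.7 in WT ESCs and 50.8 and 55.4 in WT EBs (1.06, limma adjusted p = 0.141). Vax2, a homeobox factor of the ventral eye, had 7.42 FPKM in KO ESCs and 5.53 and 9.76 in KO EBs, against 1.43 in WT ESCs and 0.751 and 0.726 in WT EBs (2.11, limma adjusted p = 0.188). Its antisense neighbour Vax2os, named after its values were seen, had 4.60, 4.16 and 9.19 FPKM in KO libraries, against 1.64, 0.732 and 1.74 in WT libraries. Platr13 had 4.09, 2.36 and 2.76 FPKM in KO libraries, was listed at 0 in the WT libraries and had 0.657 and 0.114 in the E8.0 embryos.

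The remaining named genes with higher KO values were expressed at low to middling levels. Setd4, a lysine methyltransferase, had 9.80 FPKM in KO ESCs and 14.5 and 17.5 in KO EBs, against 4.69 in WT ESCs and 6.17 and 6.09 in WT EBs. Cadm4, an adhesion molecule of the immunoglobulin family, had 12 FPKM in KO ESCs and 9.98 and 12.4 in KO EBs, against 5.35 in WT ESCs and 4.59 and 3.63 in WT EBs. Capn11, a calcium-dependent protease, and Dok2, an adaptor of tyrosine kinase signalling, had differences of 1.44 and 1.27. In each of the 12 genes the KO and WT libraries did not overlap within either material, a condition of the rule. In bulk samples such as these, a change in the share of a cell type and a change in RNA per cell cannot be told apart.

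Among genes lower in KO, Strap apart, the named ones did not pass either. Fam168a had 15.5 FPKM in KO ESCs and 11 and 9.97 in KO EBs, against 32.5 in WT ESCs and 23.2 and 21.2 in WT EBs, with a difference of -1.02 in the ESC pair and in each EB pair (SE 0.127, limma adjusted p = 0.191). Its KO values were thus close to 2-fold below WT in every pair. Id1, an inhibitor of bHLH transcription factors and a classical target of BMP signalling, had 9.22 FPKM in KO ESCs and 25.4 and 23.4 in KO EBs, against 13.6 in WT ESCs and 57.8 and 55.2 in WT EBs (-0.96, limma adjusted p = 0.319). Smyd1, a methyltransferase of muscle, had 0.422 FPKM in KO ESCs and 0.908 and 0.199 in KO EBs, against 3.37 in WT ESCs and 4.14 and 3.21 in WT EBs (-1.62, limma adjusted p = 0.255). It was thus at a low level in WT cells of both materials and lower still in KO cells.

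Several other lower genes encode membrane, cytoskeletal and signalling proteins. Sptbn1, a beta-spectrin of the membrane skeleton, had 72.7 FPKM in KO ESCs and 56.9 and 53.1 in KO EBs, against 101 in WT ESCs and 92.0 and 87.0 in WT EBs. Dennd5b, a regulator of Rab proteins, had 3.86 FPKM in KO ESCs and 11.4 and 14.5 in KO EBs, against 9.52 in WT ESCs and 24.7 and 28.5 in WT EBs. Rabgap1l, a GTPase-activating protein for Rab proteins, had a difference of -0.82, Gnb4, a G protein beta subunit, of -0.76, and Ppip5k2, a kinase of inositol pyrophosphates, of -0.66. Gamt, an enzyme of creatine synthesis, had -1.46, Lypd6, a membrane-anchored protein, -1.45, and Tmem176b, a membrane protein, -1.18. The 24 named genes kept their direction under every alternative in which they were tested. The rule largely fixed this, since it took genes whose genotypes do not overlap in either material. Leaving out a library or changing the pseudocount or weights could not turn them. Strap apart, each named gene passed in limma under 1 alternative alone, in which the embryo libraries helped to set the spread and 24 of 24 passed. Embryo libraries of a stage differed by a median of 0.09 and 0.10 on the log2 scale, against 0.26 between KO EB libraries and 0.24 between WT EB libraries.

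**Figure D2:**
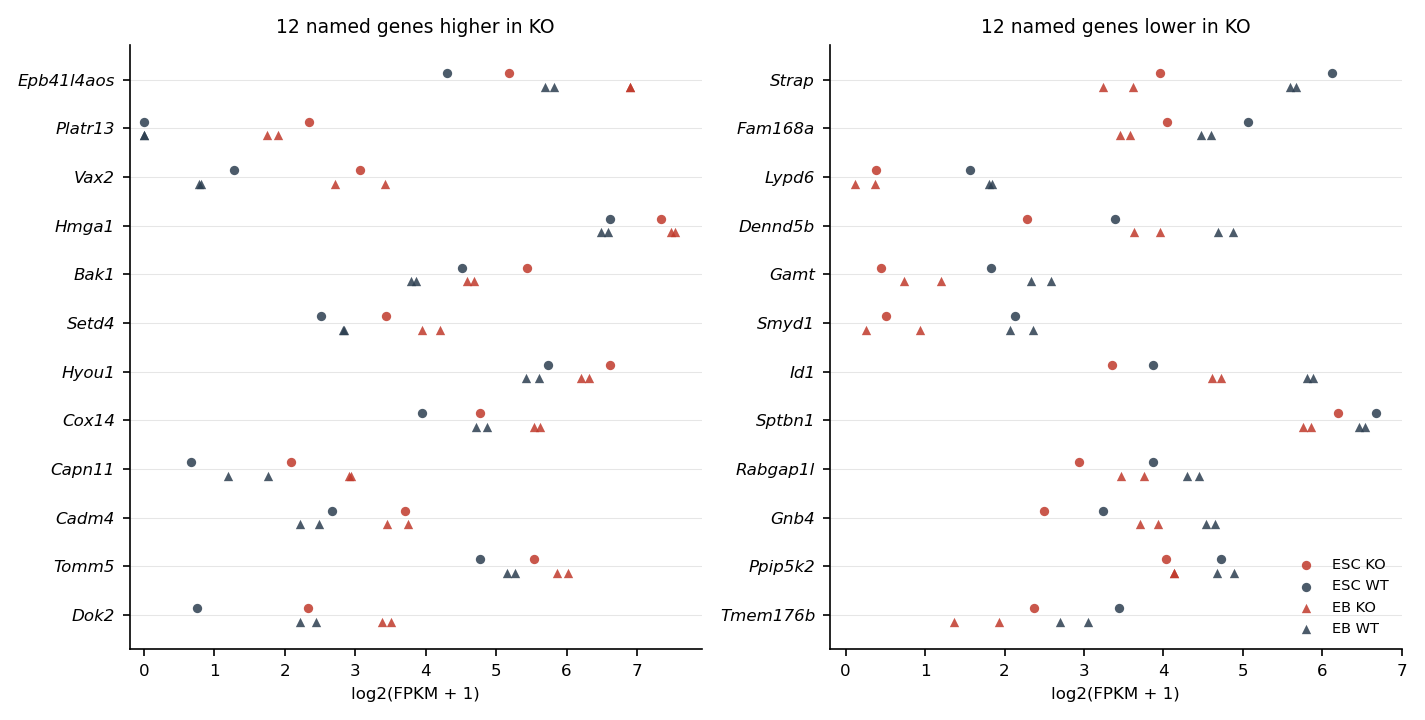
Abundance as log2(FPKM + 1) of the 12 named genes higher and the 12 lower in KO, in each of the 6 libraries, with circles for ESCs, triangles for EBs, red for KO and dark for WT. Within each material the genotypes do not overlap, which the rule required, and Hmga1 shows near-equal KO values in ESCs and EBs.

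In all, 36 rows were at least 2-fold higher in both materials and 20 at least 2-fold lower. Of these, 18 and 13 had a single, non-predicted name and no matched locus under 300 bases. Rows without a matched locus, such as the small RNA Snora16a, were not counted as short. The genes in this paragraph were chosen after their values were seen. Derl3, which retrieves misfolded proteins from the ER, had 8.20 FPKM in KO ESCs and 5.41 and 11.2 in KO EBs, against 0.481 in WT ESCs and 2.12 and 3.70 in WT EBs. Chchd10, a mitochondrial intermembrane protein, had 112 FPKM in KO ESCs and 154 and 269 in KO EBs, against 53.9 in WT ESCs and 32.2 and 123 in WT EBs. Erdr1, a gene of the pseudoautosomal region, had 42.1 FPKM in KO ESCs and 51.4 and 37.7 in KO EBs, against 6.98 in WT ESCs and 18 and 17.9 in WT EBs. Among the lower rows, Meis2, a homeobox factor, had 3.30 FPKM in KO ESCs and 22.1 and 7.53 in KO EBs, against 13.1 in WT ESCs and 52.4 and 29.1 in WT EBs. Pbx3, a homeobox cofactor of such factors, had 2.76 FPKM in KO ESCs and 10.7 and 4.03 in KO EBs, against 7.41 in WT ESCs and 18.7 and 15.1 in WT EBs. Rpl39l, a paralog of a ribosomal protein, had 7.22 FPKM in KO ESCs and 1.87 and 1.25 in KO EBs, against 33.9 in WT ESCs and 2.93 and 6.17 in WT EBs. None of these 6 genes passed in limma, with adjusted p between 0.276 and 0.353.

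Gene lists were then set beside all rows. KO and WT libraries with the same number were put side by side as 3 pairs, 1 of ESCs and 2 of EBs, and members with KO above WT in all 3 were counted. Over all rows this held for 3093 rows (24.6%), and KO lay below WT in all 3 for 2451 rows (19.5%). The median difference over all rows was -0.01 in ESCs and 0.05 in EBs. With quantile normalization the shares over all rows were 21.0% and 22.5%, so that the larger share was then the lower one. Strap was the only member of any list that passed the test across all rows, and the lists below are described by counts and medians with no test.

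Glycolysis was the list with the largest share of members higher in KO in all 3 pairs among lists with at least 8 measured members. Of 24 measured genes, 19 (79.2%) were higher in all 3 pairs, 1 was lower in all 3, and 2 were at least 1.5-fold higher in both materials, with medians of 0.45 in ESCs and 0.39 in EBs. Slc2a1, the glucose transporter GLUT1, had 165 FPKM in KO ESCs and 424 and 453 in KO EBs, against 87.9 in WT ESCs and 336 and 331 in WT EBs. Pfkl, a phosphofructokinase, had 53.7 FPKM in KO ESCs and 126 and 139 in KO EBs, against 31.5 in WT ESCs and 105 and 99.8 in WT EBs. Aldoc, an aldolase, had 8.46 FPKM in KO ESCs and 14.5 and 21.4 in KO EBs, against 3.11 in WT ESCs and 8.32 and 12.4 in WT EBs. Hk1, a hexokinase, had a difference of 0.68. These 4 genes were named by lowest p (limma adjusted p = 0.333 each). The differences were larger in the ESC pair than in either EB pair for Slc2a1, Pfkl, Aldoc and Hk1. The rank of the list depended on the setting. With quantile normalization hypoxia response genes (59.3%) were above glycolysis (58.3%), whose EB median was then 0.15. With the length and GC trends described below removed, ER chaperones (68%) were above glycolysis (65.2%). Hypoxia response and preimplantation-type genes (66.7% each) were then above it too.

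Hypoxia response genes, which share no member with the glycolysis list, gave 20 of 27 (74.1%) higher in all 3 pairs and 2 lower in all 3, with medians of 0.32 in ESCs and 0.27 in EBs. P4ha2, a collagen prolyl hydroxylase, had 38 FPKM in KO ESCs and 50.5 and 39.9 in KO EBs, against 26.2 in WT ESCs and 25.6 and 24.9 in WT EBs. Ddit4, an inhibitor of mTORC1 signalling, had 47.0 FPKM in KO ESCs and 91.7 and 201 in KO EBs, against 21.0 in WT ESCs and 67.3 and 79.6 in WT EBs. Kdm4b, a histone demethylase, and Plod1, a lysyl hydroxylase, had differences of 0.55 and 0.50. With quantile normalization the counts in all 3 pairs were 14 of 24 for glycolysis and 16 of 27 for hypoxia, and without the second KO EB library the EB medians were 0.17 and 0.13. Glycolysis had an EB median of 0.21 without the first WT EB library, and hypoxia one of 0.44 without the first KO EB library.

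Genes of both lists are known targets of hypoxia-inducible factors, which bind the core ACGTG. In RefSeq promoters (250 bases before to 50 after the start, GRCm38.p6), ACGTG was found on either strand in 12 of 22 glycolysis promoters (54.5%) and in 10 of 20 hypoxia promoters (50%), against 2213 of 8326 promoters of all rows tested (26.6%). Among rows at least 1.5-fold higher in both materials it was in 29 of 105 promoters (27.6%), and among lower rows in 12 of 67 (17.9%). A match is a description of letters and not a binding site. The share of a list of known targets describes its make-up, whatever the KO differences of its members. Of the named genes with a promoter, Slc2a1, Aldoc, P4ha2 and Ddit4 held ACGTG, and Pfkl, Hk1 and Plod1 did not. The RefSeq start used for P4ha2 lies 829 bases from the GENCODE start of the gene. The promoter of Slc2a1 (chr4:119108495-119108794, plus strand) is printed as the glycolysis gene with the lowest p, with the match in capitals.
Slc2a1: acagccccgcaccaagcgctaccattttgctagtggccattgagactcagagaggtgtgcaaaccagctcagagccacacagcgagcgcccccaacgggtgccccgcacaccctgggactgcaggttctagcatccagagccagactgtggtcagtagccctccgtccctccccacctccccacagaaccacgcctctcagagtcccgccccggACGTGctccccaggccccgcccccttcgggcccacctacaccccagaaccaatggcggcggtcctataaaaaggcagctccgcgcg

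ER chaperones and genes of the unfolded protein response, which is switched on when unfolded proteins build up in the ER, gave 14 of 25 measured genes (56.0%) higher in all 3 pairs and 0 lower in all 3, with medians of 0.15 in ESCs and 0.35 in EBs. Besides Hyou1, Hspa5, the main Hsp70 chaperone of the ER, had 305 FPKM in KO ESCs and 255 and 316 in KO EBs, against 225 in WT ESCs and 166 and 182 in WT EBs (0.61, limma adjusted p = 0.333). Syvn1, a ubiquitin ligase of ER-associated degradation, had 13.6 FPKM in KO ESCs and 14.7 and 15.6 in KO EBs, against 8.08 in WT ESCs and 10.1 and 9.87 in WT EBs. Derl3, given above, had the largest difference of the 4 named members, 1.68. In this list 4 genes were at least 1.5-fold higher in both materials and 0 lower.

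The ER stress response element, CCAAT and CCACG with 9 bases between them, was found on either strand in 8 of 22 promoters of this list (36.4%), against 16 of 8326 promoters of all rows tested (0.192%). It was in 2 of 105 promoters of the rows at least 1.5-fold higher in both materials and in 0 of 67 of the lower rows. The share of a list of known response genes describes its make-up, whatever the KO differences of its members. Hspa5 (chr2:34771840-34772139, plus strand) and Derl3 (chr10:75893148-75893447, plus strand) are printed because both carry the element, with capitals for the match, which in Derl3 lies on the other strand.
Hspa5: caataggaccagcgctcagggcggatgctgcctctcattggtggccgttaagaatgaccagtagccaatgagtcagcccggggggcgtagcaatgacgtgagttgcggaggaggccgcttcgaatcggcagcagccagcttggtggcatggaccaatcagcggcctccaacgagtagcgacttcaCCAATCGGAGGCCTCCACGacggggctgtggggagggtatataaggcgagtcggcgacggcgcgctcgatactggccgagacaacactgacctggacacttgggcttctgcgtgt
Derl3: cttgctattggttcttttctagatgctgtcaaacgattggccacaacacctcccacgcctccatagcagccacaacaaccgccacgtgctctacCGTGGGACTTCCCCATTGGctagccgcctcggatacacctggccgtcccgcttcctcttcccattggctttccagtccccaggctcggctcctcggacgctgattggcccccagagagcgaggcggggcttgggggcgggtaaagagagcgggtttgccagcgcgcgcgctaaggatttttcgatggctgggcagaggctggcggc

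Genes of the integrated stress response, the programme of the transcription factor ATF4 under amino acid, ER or haem stress, gave 21 of 34 (61.8%) higher in all 3 pairs and 1 lower in all 3, with medians of 0.14 in ESCs and 0.46 in EBs. Psph, an enzyme of serine synthesis, had 22.5 FPKM in KO ESCs and 35.9 and 25.0 in KO EBs, against 12.5 in WT ESCs and 16.6 and 16.2 in WT EBs. Trib3, a pseudokinase, had 10.8 FPKM in KO ESCs and 16 and 18.4 in KO EBs, against 6.19 in WT ESCs and 3.77 and 6.44 in WT EBs. Chac1, which degrades glutathione, had 6.18 FPKM in KO ESCs and 7.98 and 10.0 in KO EBs, against 3.75 in WT ESCs and 3.62 and 4.21 in WT EBs. Nupr1, a stress-induced chromatin protein, had 37.4 FPKM in KO ESCs and 26.8 and 28.5 in KO EBs, against 20 in WT ESCs and 2.06 and 8.74 in WT EBs. The KO level of Nupr1 was thus alike in the 2 materials, while WT EBs were far below WT ESCs. The element TGATGNAAN, bound by C/EBP and ATF4 pairs, was in 7 of 27 promoters of this list (25.9%), against 166 of 8326 (1.99%) of all rows tested. It was in 5 of 105 promoters (4.76%) of the rows at least 1.5-fold higher in both materials and in 3 of 67 (4.48%) of the lower rows. Here too the share of the list describes its make-up, whatever the KO differences of its members. The promoter of Psph, the gene of this list with the lowest p, held no match, while those of Chac1 and Nupr1 did. The RefSeq start used for Nupr1 lies 5391 bases from the GENCODE start of the gene. Trib3 (chr2:152344011-152344310, minus strand) is printed because it carries 1 match, on the other strand, in capitals.
Trib3: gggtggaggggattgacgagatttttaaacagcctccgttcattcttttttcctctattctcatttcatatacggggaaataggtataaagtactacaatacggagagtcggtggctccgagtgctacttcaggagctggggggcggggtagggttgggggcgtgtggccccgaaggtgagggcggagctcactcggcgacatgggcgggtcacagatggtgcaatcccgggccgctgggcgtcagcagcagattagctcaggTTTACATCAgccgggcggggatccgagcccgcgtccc

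Replication-dependent histones, which supply chromatin in S phase from mRNAs without a poly(A) tail, gave 22 of 43 (51.2%) higher in all 3 pairs and 1 lower, with medians of 0.13 in ESCs and 0.38 in EBs. Hist1h2ac had 55.2 FPKM in KO ESCs and 146 and 126 in KO EBs, against 37.2 in WT ESCs and 79.6 and 84.1 in WT EBs (0.67, limma adjusted p = 0.305). Hist1h4i had 25.0 FPKM in KO ESCs and 112 and 120 in KO EBs, against 23.5 in WT ESCs and 58.8 and 67.6 in WT EBs. Since histone genes resemble each other closely, reads may be shared between them and single genes are uncertain. When the trends on locus length and GC described below were removed from each library, the count was 10 of 43 (23.3%) higher and 4 lower in all 3 pairs, close to the 23.6% higher and 16.4% lower over all rows after that step, and the ESC median was -0.02. After the same step glycolysis had 15 of 23, hypoxia 18 of 27, ER chaperones 17 of 25 and the integrated stress response 19 of 33 higher in all 3 pairs.

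Only 8 of 20 listed snoRNA host genes were measured in rows of their own, and 4 were higher in KO in all 3 pairs, with medians of 0.01 in ESCs and 0.75 in EBs. Snhg20 had 45.5 FPKM in KO ESCs and 610 and 337 in KO EBs, against 30.3 in WT ESCs and 131 and 140 in WT EBs, and Snhg6 had 113 FPKM in KO ESCs and 129 and 174 in KO EBs, against 84.7 in WT ESCs and 102 and 99.7 in WT EBs. Metallothioneins and oxidative stress genes gave 8 of 19 higher in all 3 pairs, and preimplantation-type genes 7 of 12. Rhox5, an X-linked homeobox gene, had 33.8 FPKM in KO ESCs and 48.0 and 44.7 in KO EBs, against 26.7 in WT ESCs and 26.2 and 29.4 in WT EBs.

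**Figure D3:**
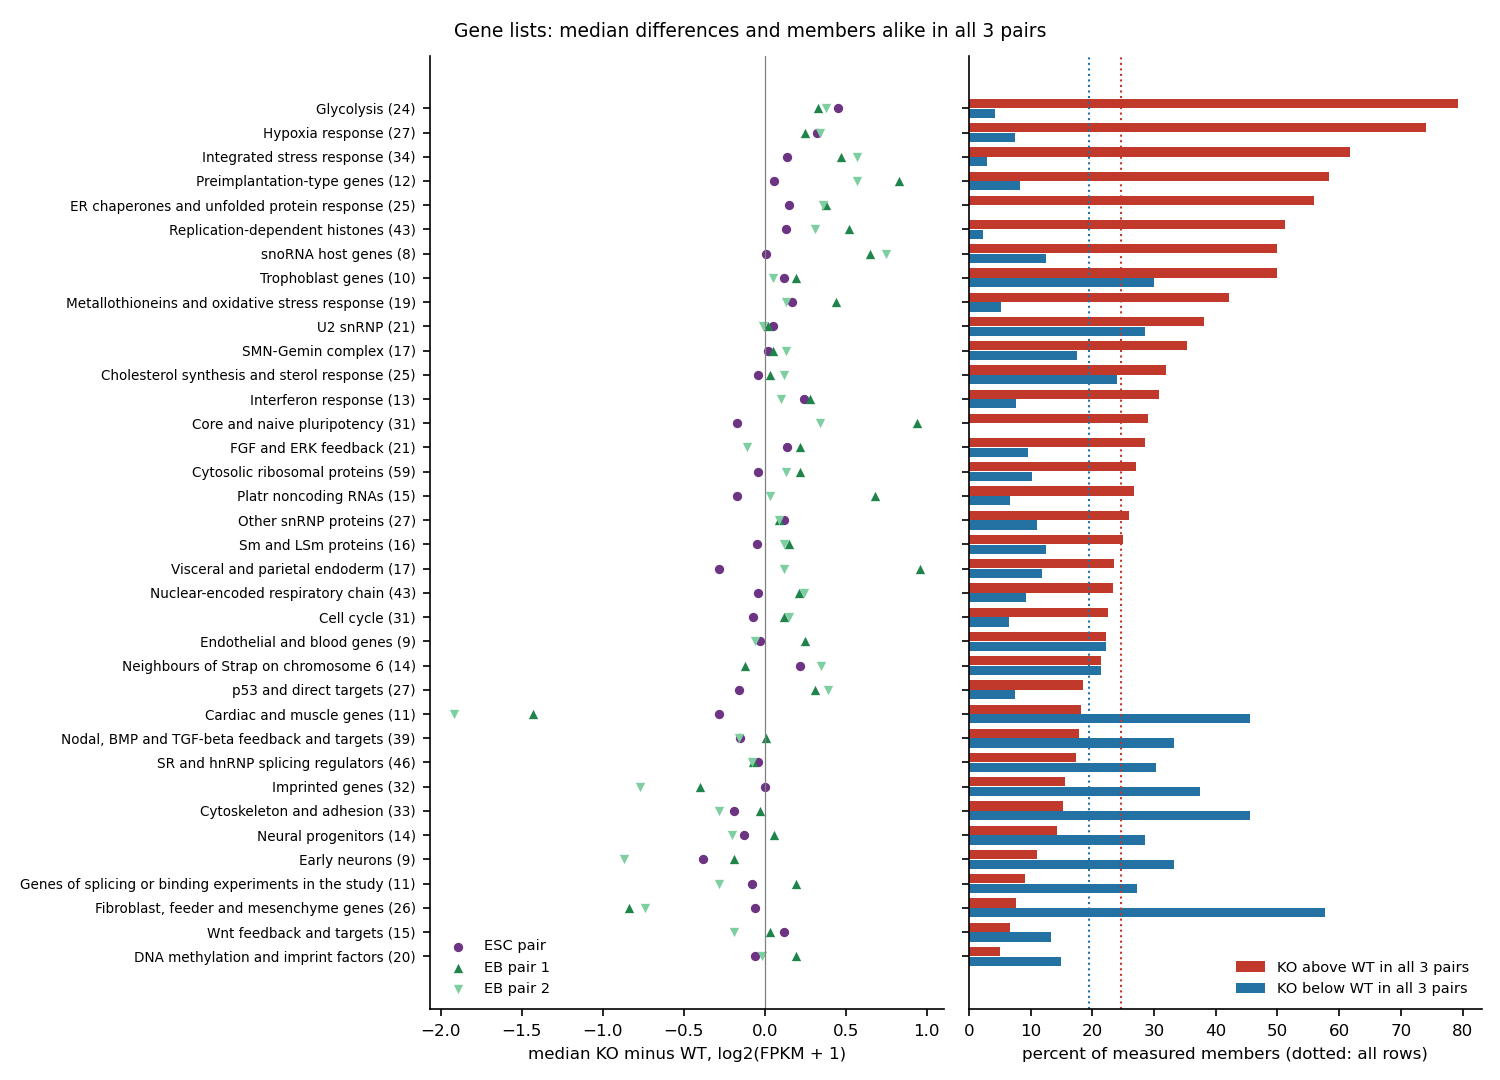
Left, median KO minus WT difference of each gene list on the log2(FPKM + 1) scale in the ESC pair and the 2 EB pairs, with the number of measured members in brackets. Right, percent of members with KO above or below WT in all 3 pairs, with dotted lines at 24.6% and 19.5% for all rows. Glycolysis is highest with 79.2% above, and fibroblast, feeder and mesenchyme genes have 57.7% below.

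Lists lower in KO were led by fibroblast, feeder and mesenchyme genes, of which 15 of 26 (57.7%) were lower in all 3 pairs and 2 higher. Most of this lay in EBs, with medians of -0.06 in ESCs and -0.70 in EBs. Col6a3, a chain of a pericellular collagen, had 4.71 FPKM in KO ESCs and 0.960 and 1.04 in KO EBs, against 7.77 in WT ESCs and 4.55 and 3.12 in WT EBs. Col5a1, a chain of a fibril-forming collagen, had 19.8 FPKM in KO ESCs and 4.29 and 1.74 in KO EBs, against 27.7 in WT ESCs and 12.3 and 10.6 in WT EBs. Of the 7 feeder or fibroblast markers, 6 were in the table and 0 were below 1 FPKM in all libraries, and their sum was 402 FPKM in KO ESCs and 17.9 and 14.8 in KO EBs, against 429 in WT ESCs and 38 and 29.4 in WT EBs. The part of feeder cells in these ESC and EB values was not tested.

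Cytoskeleton and adhesion genes gave 15 of 33 (45.5%) lower in all 3 pairs and 5 higher, with medians of -0.19 in ESCs and -0.28 in EBs. The EB median was 0.04 without the second KO EB library, and the ESC median was -0.09 without chromosome 8, which was lower as a whole in the ESC pair. Itgb1, a beta subunit shared by many integrins and encoded on chromosome 8, had 129 FPKM in KO ESCs and 79.7 and 67.0 in KO EBs, against 162 in WT ESCs and 120 and 99.4 in WT EBs. Itgb5 had 21.6 FPKM in KO ESCs and 15.6 and 11.2 in KO EBs, against 34.4 in WT ESCs and 22.6 and 17.2 in WT EBs. Crip1, on the same list, was higher in KO, with 10.2 FPKM in KO ESCs and 29.0 and 44.3 in KO EBs, against 2.83 in WT ESCs and 24.4 and 32.3 in WT EBs.

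Feedback genes and targets of Nodal, BMP and TGF-beta were examined because STRAP is known as an inhibitor of TGF-beta signalling. Of 39 measured genes, 13 (33.3%) were lower and 7 (17.9%) higher in all 3 pairs, with medians of -0.15 in ESCs and 0.00 in EBs. Besides Id1, the inhibitory SMAD Smad6 had 3.76 FPKM in KO ESCs and 2.70 and 2.37 in KO EBs, against 5.81 in WT ESCs and 5.06 and 7.2 in WT EBs. Smad4, the common mediator of the pathway, went the other way, with 40.1 FPKM in KO ESCs and 61.3 and 50.3 in KO EBs, against 25.7 in WT ESCs and 42.2 and 40.7 in WT EBs. Ski, a repressor of SMADs, had 30.4 FPKM in KO ESCs and 36.5 and 34.7 in KO EBs, against 24.6 in WT ESCs and 27.3 and 24.9 in WT EBs. The list thus held members of both directions.

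Imprinted and cardiac genes had the larger list medians in EBs. Of 32 imprinted genes, 12 (37.5%) were lower in all 3 pairs and 5 higher, with medians of 0.00 in ESCs and -0.66 in EBs, the EB median being -0.33 without the second KO EB library. Sfmbt2, a Polycomb-type protein, was lower in KO in both materials, with 2.74 FPKM in KO ESCs and 11.6 and 8.77 in KO EBs, against 5.58 in WT ESCs and 21.3 and 14.2 in WT EBs. Dlk1, a Notch-related membrane protein, had 1.44 FPKM in KO ESCs and 23.9 and 14.5 in KO EBs, against 2.76 in WT ESCs and 93.2 and 140 in WT EBs. Of 11 cardiac and muscle genes, 5 were lower in all 3 pairs and 2 higher, with medians of -0.28 in ESCs and -1.69 in EBs. The 4 cardiac markers summed to 4.72 FPKM in KO ESCs and 5.96 and 3.96 in KO EBs, against 4.44 in WT ESCs and 122 and 41.7 in WT EBs. Of 9 early neuron genes, 3 were lower in all 3 pairs and 1 higher, with medians of -0.38 in ESCs and -0.46 in EBs, the EB median being -0.82 without the first and -0.25 without the second KO EB library. Nefl, a neurofilament, had 1.55 FPKM in KO ESCs and 3.23 and 2.58 in KO EBs, against 8.21 in WT ESCs and 8.50 and 4.00 in WT EBs, whereas Stmn2 had 44.2 FPKM in KO ESCs and 41.0 and 51.5 in KO EBs, against 61.3 in WT ESCs and 17.4 and 17.0 in WT EBs.

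Some lists had medians of opposite sign in the 2 materials. Pluripotency genes had -0.17 in ESCs and 0.66 in EBs (0.16 without the first WT EB library and 1.18 without the second), with 9 of 31 (29.0%) higher and 0 lower in all 3 pairs, and p53 with its direct targets had -0.16 in ESCs and 0.34 in EBs, with 5 of 27 higher and 2 lower. Visceral and parietal endoderm genes had -0.28 in ESCs and 0.65 in EBs. Klf4, a factor of naive pluripotency, had 103 FPKM in KO ESCs and 22.1 and 31.4 in KO EBs, against 79.3 in WT ESCs and 5.71 and 5.97 in WT EBs. Rrm2b, a p53-induced subunit of ribonucleotide reductase, had 11.7 FPKM in KO ESCs and 10 and 11 in KO EBs, against 6.49 in WT ESCs and 4.50 and 6.09 in WT EBs. These 2 genes were higher in KO in both materials although their lists were not.

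Lists of the splicing machinery, with which STRAP is linked through the SMN complex, had medians between -0.08 and 0.16 in both materials. The paper also reports that STRAP binds U2 snRNP proteins and proposes a part in their assembly. The RNA values here measure neither protein levels nor assembly. In the SMN-Gemin list, Strap was called and the other 16 of 17 measured genes were not, with a median of 0.02 in ESCs and 0.10 in EBs. Proteins of the U2 snRNP gave 8 of 21 higher and 6 lower in all 3 pairs, Sm and LSm proteins 4 and 2 of 16, and other snRNP proteins 7 and 3 of 27. SR and hnRNP regulators gave 8 of 46 higher and 14 lower, with medians of -0.04 in ESCs and -0.06 in EBs. These counts turned with scaling. With quantile normalization they were 3 higher and 8 lower for U2 (4 and 8 with median scaling), 3 and 4 for other snRNP proteins, 4 and 4 for SMN-Gemin, against 6 and 3, and 4 and 23 for SR and hnRNP regulators, which had 15 higher and 12 lower with length and GC trends removed. Snrpe, an Sm protein, had 82.0 FPKM in KO ESCs and 90.3 and 131 in KO EBs, against 144 in WT ESCs and 126 and 143 in WT EBs (-0.47, limma adjusted p = 0.372). Sf3b1, the scaffold of the branch site complex, had 104 FPKM in KO ESCs and 96.3 and 104 in KO EBs, against 118 in WT ESCs and 118 and 120 in WT EBs. Of 11 genes that the study examined in splicing or RNA binding, 1 was higher and 3 lower in all 3 pairs, and since some were picked on such material the list is not independent.

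In the other lists, counts of members higher and lower in all 3 pairs were 16 and 6 of 59 for cytosolic ribosomal proteins, 10 and 4 of 43 for the nuclear-encoded respiratory chain, 8 and 6 of 25 for cholesterol synthesis, 7 and 2 of 31 for the cell cycle, 6 and 2 of 21 for FGF and ERK feedback, and 4 and 1 of 13 for the interferon response. With quantile normalization the counts turned to 4 higher and 24 lower for ribosomal proteins, 8 and 9 for the respiratory chain and 7 and 8 for cholesterol synthesis, and were 5 and 4 for the cell cycle. The counts were 1 and 2 of 15 for Wnt targets, 1 and 3 of 20 for DNA methylation and imprint factors, 2 and 4 of 14 for neural progenitors, 4 and 2 of 17 for visceral and parietal endoderm, 5 and 3 of 10 for trophoblast genes, 2 and 2 of 9 for endothelial and blood genes, and 4 and 1 of 15 for Platr noncoding RNAs. Of mesendoderm genes 2 were measured and 1 was higher in all 3 pairs. The single measured mitochondrially encoded row, mt-Nd6, was mixed, and no Y-linked gene passed the filter.

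Whether ESCs and EBs differed was tested directly with 4 group means. This test rests on the spread between EB libraries alone and assumes that ESC libraries vary like them. It called 3 of 12579 rows (0.0238%), all of them small RNAs given in the closing part, while 618 had an unadjusted limma p under 0.05. It called 0 rows without the first KO EB library (614 at unadjusted p under 0.05) and 0 without the second (480), 6 without the first WT EB library and 11 without the second. Protein-coding genes with the lowest p did not pass. Ece1, an enzyme that activates endothelin, had 59.5 FPKM in KO ESCs against 12.6 in WT ESCs, and 26 and 19 in KO EBs against 45.7 and 47.3 in WT EBs, which puts the ESC difference 3.19 above the EB difference (SE 0.34, limma adjusted p = 0.362). Lrp2, an endocytic receptor, had 4.79 FPKM in KO ESCs against 15.2 in WT ESCs, and 61.2 and 64.0 in KO EBs against 39.9 and 31.6 in WT EBs (limma adjusted p = 0.681). Tmem144, a membrane protein, and Rps27rt, a ribosomal protein retrocopy whose reads may be shared with its parent gene, were also lower in KO ESCs and higher in KO EBs.

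The differences followed gene length and base composition in all 3 pairs. When protein-coding genes were put into 5 groups of 2045 or 2046 by locus length, the median difference of the shortest loci (165 to 8840 bases) was 0.049 in the ESC pair and 0.253 and 0.158 in the EB pairs. For the longest loci (70263 to 2270724 bases) it was -0.092 in the ESC pair and -0.099 and -0.107 in the EB pairs. By the GC content of the longest transcript, the group of 30.96% to 43.85% had medians of -0.088, -0.178 and -0.128, and the group of 55.63% to 72.83% had 0.105, 0.354 and 0.262, in the ESC pair and the first and second EB pairs. Of the genes with the highest GC, 3.43% were at least 1.5-fold higher and 0.147% lower in both materials, and of those with the lowest GC 0.146% were higher and 1.42% lower. With both trends removed from each library, an alternative chosen after seeing the data, 109 rows were at least 1.5-fold higher in both materials. Another 77 were lower and 83 had opposite directions, so lower rows no longer outnumbered the opposite ones. Snord83b and Strap were still the rows called.

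**Figure D4:**
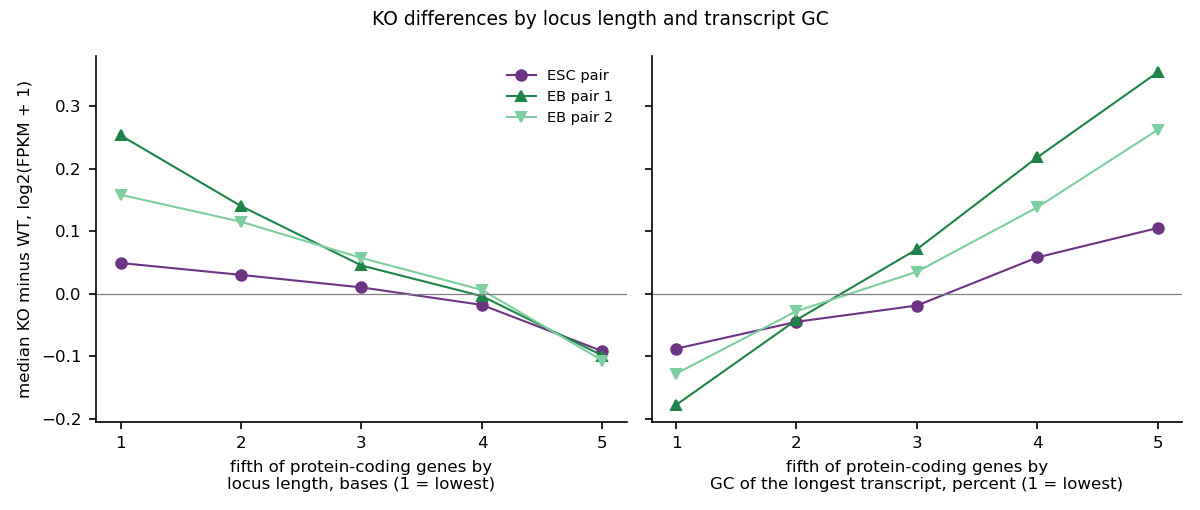
Median KO minus WT difference on the log2(FPKM + 1) scale in the ESC pair and the 2 EB pairs, for protein-coding genes in 5 groups by locus length (left) and by GC content of the longest transcript (right), from lowest to highest. All 3 lines fall with length and climb with GC, with ESC medians of 0.049 and -0.092 at the ends of the length axis.

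Chromosome 8 had the lowest median of all chromosomes in the ESC pair. Its 554 rows had a median difference of -0.251 in the ESC pair, where 75.1% of rows were lower in KO, against medians of -0.066 to 0.062 for the other chromosomes. In EBs the same rows had a median of -0.027, with -0.073 and 0.016 in the pairs. Of these rows 1 was at least 1.5-fold higher in both materials and 4 lower. Without chromosome 8 the counts over all rows were 182 higher and 105 lower, and the same 2 rows were called. On chromosome 6, the 72 other rows within 10 Mb of Strap had medians of 0.15 in ESCs and 0.16 in EBs. The other 501 rows of that chromosome had -0.01 and 0.00. In all 3 pairs, 22 of the 72 rows were higher and 7 lower, against 95 and 97 of the 501. Over all rows the shares were 24.6% and 19.5%. At least 1.5-fold higher in both materials were 3 of the 72 rows, against 9 of the other 501 and 1.45% of all rows. These were Lockd, H2afj and Lrmp, named after their values were seen, and Gprc5a was as far apart in opposite directions. H2afj, a histone H2A variant, had 28.2 FPKM in KO ESCs and 47.0 and 69.8 in KO EBs, against 17.4 in WT ESCs and 14.7 and 19.3 in WT EBs. In a list of neighbours of Strap, 14 genes were measured, of which 3 were higher and 3 lower in all 3 pairs. Its member Mgst1, a microsomal glutathione transferase, had 7.59 FPKM in KO ESCs and 2.81 and 2.1 in KO EBs, against 7.74 in WT ESCs and 6.65 and 5.66 in WT EBs. These rows lie beside the edited locus, and an effect of the edit or of linked strain sequence cannot be told apart from one of STRAP.

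**Figure D5:**
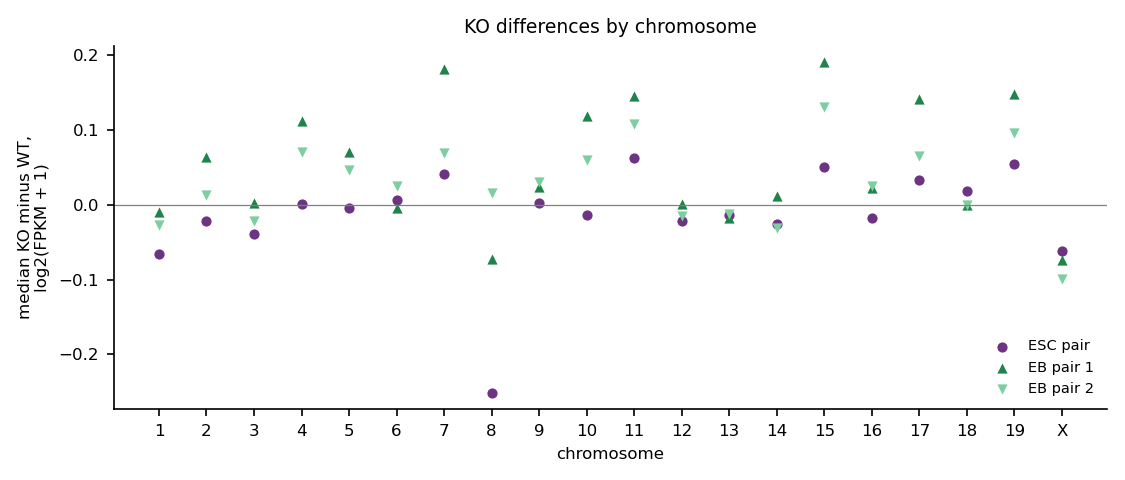
Median KO minus WT difference on the log2(FPKM + 1) scale of the rows of each chromosome, in the ESC pair and the 2 EB pairs. Chromosome 8 lies at -0.251 in ESCs and at -0.073 and 0.016 in the EB pairs.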

How the data were processed

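Total RNA of the 6 ESC and EB libraries was depleted of ribosomal RNA and sequenced (labels and methods name different kits). The deposited table holds FPKM, which the authors made by trimming reads, aligning them with STAR 2.5.2b to GRCm38 and running Cufflinks 2.2.1 with strand. It has 46955 rows, of which 1062 carry merged names. Of 45893 single-name rows 95.3% matched 1 GENCODE gene. As FPKM are not counts, limma 3.58.1 in R 4.3.3 was run on log2(FPKM + 1) with a trend on abundance, two-sided, adjusted over 12579 rows (3 residual and 3.3 prior degrees of freedom), after tests on simulated data. An exact permutation over samples cannot go below 0.167 and was not used. Members and lists were chosen with earlier results of these data known. Named genes were Strap and the called, then lowest-p, genes up to 12 per direction with genotypes not overlapping in either material, 5 with the lowest p between materials, and up to 4 per list; merged, predicted and short (under 300 bases) loci were left out. Alternatives varied pseudocount, filter, scaling, weights, block, moderation and libraries. Removal of chromosome 8, of length and GC trends (natural splines), and of EB libraries or short loci from the 1.5-fold counts was added after seeing the data.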

Additional observations from a re-analysis of the deposited data

Results flagged for a closer look

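In 3 small RNAs the KO difference in ESCs was not the same as in EBs by the limma test between the materials. Snora16a, which matched no single GENCODE locus, had 53.1 FPKM in KO ESCs and was listed at 0 in WT ESCs, and it had 52.5 and 55.8 FPKM in KO EBs against 21.1 and 22.3 in WT EBs. Its ESC difference lay 4.48 above its EB difference (SE 0.27, limma adjusted p = 0.0496). Gm26465, an snRNA locus of 107 bases on chromosome 3 (88970623 to 88970729, minus strand), had 75.2 FPKM in KO ESCs and was listed at 0 in WT ESCs, and it was listed at 0 in both KO EB libraries against 48.6 and 99.8 FPKM in WT EBs, a gap of 12.39 (SE 0.644, limma adjusted p = 0.0348). Gm24967, another snRNA locus of 107 bases on chromosome 4 (108466944 to 108467050, minus strand), was listed at 0 in KO ESCs against 123 FPKM in WT ESCs, and had 161 and 147 FPKM in KO EBs against 194 and 160 in WT EBs, a gap of -6.76 (SE 0.277, limma adjusted p = 0.0208). The 2 snRNA loci fall outside the naming rule and are named after their values were seen. Each of the 3 rows has a library listed at 0, so the gaps depend on the pseudocount.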

How the results depend on the processing

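Main counts were 1 row higher, 1 lower, 3 different between materials, and 183, 109 and 91 rows at least 1.5-fold higher, lower and opposite. With a pseudocount of 0.1 these were 2 higher, 5 between materials, 186 lower at 1.5-fold and 173 opposite. Without a filter 0 were lower and 0 differed between materials (limma, 2290 and 2778 at unadjusted p under 0.05), and at a mean FPKM of 5 the 1.5-fold counts were 99, 41 and 28. At 2-fold they were 36, 20 and 13. Equal weights gave 3 higher. All 10 libraries gave 46 higher, 30 lower and 8 between materials. Without short loci 0 were higher and 0 differed between materials (1674 and 584). Without the trend 0 were lower and 0 differed between materials (1607 and 630). With length and GC trends removed, the 1.5-fold counts were 109, 77 and 83. Leaving out 1 library gave 0 to 3 higher, 0 to 2 lower and 0 to 11 between materials, and 168 to 291, 123 to 209 and 106 to 194 at 1.5-fold. No row was called without the first KO EB library (limma, 1241 at unadjusted p under 0.05). Without the second WT EB library the 1.5-fold counts were 291, 190 and 194. Without the first KO EB library 209 were lower and 184 opposite, and without the second KO EB library 123 were lower and 138 opposite. Other alternatives stayed within 1.5 times.

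With the replicate block (ESC, EB 1 and EB 2 as pairs) 1 row was higher and 1 lower, Snord83b and Strap, with Strap at -2.18 (limma adjusted p = 0.0399), and 2502 rows had an unadjusted p under 0.05. EB libraries with the same number deviated together across rows (r = 0.449), but with 2 such pairs this is a hint from the data, and the block stays an alternative. Of the named genes and list members, none reversed a call. The test between materials could not be fitted without an ESC library. The genotype test then compares EBs alone, and rows called in it were not held to the same direction in ESCs. Without counts the precision of low rows and of loci under 300 bases is unknown, and values listed at 0 have no floor.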
